A study of Mus musculus with 2 samples.

Results

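Neural stem cell and astroglial marker genes were examined for R-loop peaks in primary neural stem/progenitor cells (NSPCs). The 10 genes Nes, Vim, Prom1, Fabp7, Slc1a3, Slc1a2, Gfap, Aldh1l1, S100b and Aqp4 were taken by their symbols from the 37273 genes of the GENCODE M1 annotation, of which 22367 are protein-coding. All 10 symbols were found, and each is annotated as protein-coding. Peaks that overlapped a gene by at least 1 bp, or lay within 10 kb of it, were assigned to that gene, which gave 24 of the 22132 peaks in the list. The NSPCs came from frontal brains of C57BL/6 mice at postnatal day 7 and had been exposed to 0.5 μM aphidicolin, an inhibitor of DNA polymerases, for 48 h. The sample labels do not name the aphidicolin, which is taken from the study's methods. DRIP, the recovery of RNA:DNA hybrids with the S9.6 antibody from digested genomic DNA, was followed by sequencing, and the peaks of 1 list on the mm9 genome are the data described here. The list gives positions without signal or read counts. Depth per peak is therefore unknown, the values have no replicate error, and no test was made. Transcription data of these cells were not analysed here, and a peak list cannot show which cell types the culture contained.

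R-loops are structures in which nascent RNA pairs with the template strand of DNA while the other strand is displaced. They are favoured where the transcribed RNA is rich in G, that is where the coding strand carries more G than C, a bias called GC skew. Neural stem cells of the postnatal brain share many genes with astrocytes, because they derive from radial glia, and several of the genes below mark both cell types. They encode cytoskeletal filaments (Nes, Vim, Gfap), glutamate transporters (Slc1a3, Slc1a2), a membrane glycoprotein of progenitors (Prom1), a fatty acid binding protein of radial glia (Fabp7), a folate enzyme of astrocytes (Aldh1l1), a calcium-binding protein (S100b) and the water channel of astrocytic endfeet (Aqp4).

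R-loop peaks were found in 7 of the 10 marker genes, compared to 39.6% of all protein-coding genes and 27.1% of all annotated genes. The glutamate transporter gene Slc1a3 contained 9 peaks, Slc1a2 contained 5, Aldh1l1 contained 2, and Nes, Vim, S100b and Aqp4 contained 1 each. Gfap, Prom1 and Fabp7 contained 0. With the 10 kb on either side, 9 of the 10 genes had a peak, compared to 51.3% of protein-coding genes and 39.8% of all annotated genes, and Fabp7 was the gene without one. The 20 peaks within the genes covered 47.5 of their 488 kb. Their median width was 2.43 kb, with a range from 0.486 to 5.70 kb, while the median of all peaks was 1.32 kb. The median share of the gene covered by peaks was 13.6% over the 10 genes and 0% over all protein-coding genes, most of which had no peak. Among genes with a peak, it was 21.0% for the 7 markers and 10.4% for 8858 protein-coding genes. The median lengths of these 2 sets were 14.3 and 27.4 kb. The marker genes had a median length of 13.9 kb, close to the 15.4 kb of all protein-coding genes.

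**Figure D1:**
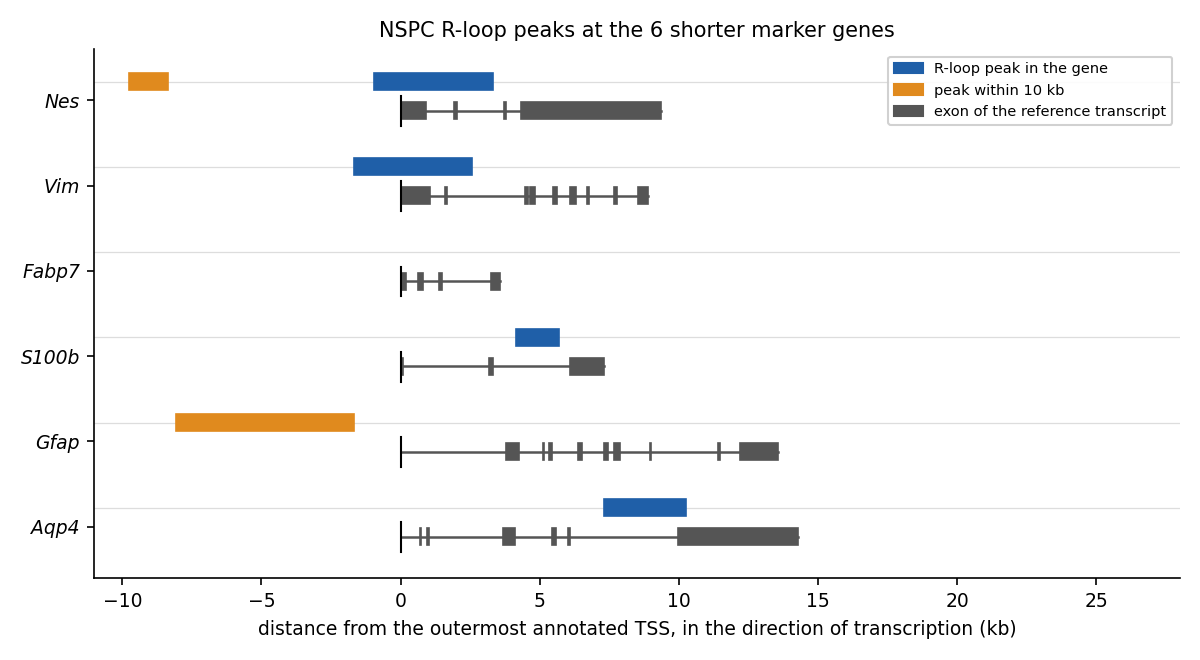
Position of R-loop peaks at Nes, Vim, Fabp7, S100b, Gfap and Aqp4 by distance from the outermost annotated TSS in kb, in the direction of transcription. Blue boxes are peaks in the gene, orange boxes peaks within 10 kb, and grey boxes exons of 1 transcript per gene. The peaks of Nes and Vim contain the TSS, those of S100b and Aqp4 start 4.14 and 7.31 kb inside the gene, Gfap has a peak only upstream, and Fabp7 has none.

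The place of the peaks differed between the genes. In 3 of the 10 genes, Nes, Vim and Slc1a2, a peak contained the outermost TSS, compared to 14.9% of protein-coding genes and 11% of all annotated genes. The outermost transcript end (TES) lay inside a peak in Slc1a2 alone, 1 of 10, compared to 10.9% of protein-coding genes and 8.12% of all annotated genes. Of the 20 peaks, 7 overlapped an exon of the transcript used as reference for the gene and 12 lay wholly within its introns. The remaining peak, in Aldh1l1, lay upstream of the protein-coding transcripts. Exons of the reference transcripts were thus touched by the peaks of Nes, Vim and Aqp4. They were also touched by 1 of the 9 peaks in Slc1a3, 2 of the 5 in Slc1a2 and 1 of the 2 in Aldh1l1. Slc1a3 held 9 and Slc1a2 held 5 of the 20 peaks, so these genes weigh most in the counts of exons and introns. The same shares over all peaks are not given here.

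For 8 of these peaks, the window of 100 bp is shown in which G most outnumbered C in the direction of transcription. This bias favours R-loops where the stretch is transcribed. Runs of at least 3 G are in capitals, sequences are from mm9, and stretches in annotated untranslated regions were passed over. The first set shows the peaks at the TSS of Nes, Vim and Slc1a2.
Nes, intron 2 (chr3:87777917-87778016, plus strand): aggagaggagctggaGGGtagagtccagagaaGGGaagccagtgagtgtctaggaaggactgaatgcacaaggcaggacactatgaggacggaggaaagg
Vim, -0.626 kb from the TSS (chr2:13494928-13495027, plus strand): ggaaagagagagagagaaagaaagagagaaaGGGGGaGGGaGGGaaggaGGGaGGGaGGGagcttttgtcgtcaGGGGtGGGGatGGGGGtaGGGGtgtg
Slc1a2, intron 1 (chr2:102499801-102499900, plus strand): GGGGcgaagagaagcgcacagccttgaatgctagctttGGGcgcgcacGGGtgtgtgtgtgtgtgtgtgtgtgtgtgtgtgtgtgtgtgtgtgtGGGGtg
The second set shows 3 of the 9 peaks in Slc1a3, whose stretches consist largely of purines.
Slc1a3, intron 2, peak 1 (chr15:8655881-8655980, minus strand): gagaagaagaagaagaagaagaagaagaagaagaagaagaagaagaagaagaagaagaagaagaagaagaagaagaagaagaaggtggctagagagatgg
Slc1a3, intron 2, peak 2 (chr15:8649610-8649709, minus strand): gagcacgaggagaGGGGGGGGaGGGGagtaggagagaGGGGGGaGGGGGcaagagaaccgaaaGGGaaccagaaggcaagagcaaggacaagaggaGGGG
Slc1a3, intron 2, peak 3 (chr15:8643781-8643880, minus strand): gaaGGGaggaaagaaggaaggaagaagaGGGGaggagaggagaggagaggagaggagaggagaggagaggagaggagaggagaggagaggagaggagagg
The last set shows a peak inside Aldh1l1 and the peak of S100b.
Aldh1l1, intron 4 and exon 5 (chr6:90512542-90512641, plus strand): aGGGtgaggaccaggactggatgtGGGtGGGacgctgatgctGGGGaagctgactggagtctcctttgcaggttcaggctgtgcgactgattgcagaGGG
S100b, intron 2 (chr10:75721065-75721164, plus strand): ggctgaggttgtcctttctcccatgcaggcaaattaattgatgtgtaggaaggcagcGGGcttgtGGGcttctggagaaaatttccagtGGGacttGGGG

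The stretch in the Vim peak had 56 G and 3 C with 10 runs of G, the most runs among those of the marker genes. It lay upstream of the TSS, outside the annotated gene, whose first 1 kb had a skew of -0.152. The stretch of the Slc1a2 peak over the TES also lay outside its gene. The Slc1a3 stretch of peak 3 had 58 G and 0 C, but 2 runs, since most G stood alone or in pairs between A. A and G together made up 96% of the Slc1a3 stretch of peak 1, 89% of peak 2 and 100% of peak 3. In the Slc1a3 stretches not shown, they made up from 59% in peak 9 to 99% in peak 5. Of the 19 stretches, which leave out Aqp4, 5 consisted of more than 80% purines, those of Vim and of peaks 1, 2, 3 and 5 of Slc1a3. The share was 10.02% in 15096 stretches chosen the same way in peaks over protein-coding genes of 1 strand. The excess of G over C had a median of 28 bases in both sets. Runs of GGG were present in 15 of 19 stretches and in 87.4% of those of all genes, with a median of 3 runs in each set.

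Nes encodes nestin, the intermediate filament used to recognise neural stem cells. It spans 9.37 kb on the plus strand (chr3:87775000-87784373, ENSMUSG00000004891). A peak of 4.25 kb (chr3:87774059-87778306) reached from 941 bp upstream of the TSS to 3.31 kb downstream and covered 35.3% of the gene. It contained the starts of all 3 annotated transcripts and overlapped exons 1 and 2 of Nes-001, with 911 bp of coding sequence, 110 bp of untranslated sequence and 2271 bp of introns. Exons 3 and 4, the latter by far the longest of the gene, lay outside the peak. An additional peak of 1.39 kb (chr3:87765256-87766640) lay 8.36 kb upstream in sequence with no annotated gene. Of 6702 protein-coding genes with 0.5 to 2 times the length of Nes, 38.3% contained a peak and 84.2% had a smaller share of their length covered. Within 100 kb of the Nes TSS there were 10 peaks, its own included.

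Vim, the gene of vimentin, the filament protein of radial glia and many other dividing cells, resembled Nes in length and in the width of its peak. It spans 8.90 kb on the plus strand (chr2:13495554-13504453, ENSMUSG00000026728), and a peak of 4.26 kb (chr2:13493874-13498135) extended from 1.68 kb upstream of the TSS to 2.58 kb downstream. The peak covered 29.0% of the gene and overlapped exons 1 and 2 of Vim-001, including 624 bp of coding sequence. The starts of 4 of the 5 transcripts lay inside it, and the exception was Vim-004, a retained intron transcript that starts 5.46 kb into the gene. No other peak was near, as the next ones lay 406 kb upstream and 556 kb downstream. Its own peak was thus the 1 peak within 100 kb of the Vim TSS, where Nes had 10. Among 6564 protein-coding genes of 0.5 to 2 times its length, 37.7% contained a peak and 81.5% were covered to a smaller share. Of these genes, 1213 were covered to at least the same share.

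Gfap encodes the filament protein of mature astrocytes and of adult neural stem cells. It contained 0 peaks over its 13.6 kb on the minus strand (chr11:102748650-102762226, ENSMUSG00000020932). The nearest peak was the widest at any of the 10 genes, 6.40 kb (chr11:102763883-102770285), and ended 1656 bp upstream of the outermost start. That start belongs to Gfap-002, a transcript without coding sequence. The protein-coding transcripts Gfap-001 and Gfap-201 start 3.78 and 3.71 kb further inside, 5.44 and 5.37 kb from the peak. The peak overlapped the end of Kif18b, a kinesin gene on the same strand, which held 53.8% of it, and lay wholly within Gm17536, an annotated lincRNA of the opposite strand that spans all of Gfap. The stretch without peaks around Gfap was 26.3 kb, and among 13335 protein-coding genes without a peak in the gene but with peaks on both sides on the chromosome, 96.9% lay in a stretch at least as wide. Of 7354 protein-coding genes of similar length (0.5 to 2 times), 41.9% contained a peak.

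**Figure D2:**
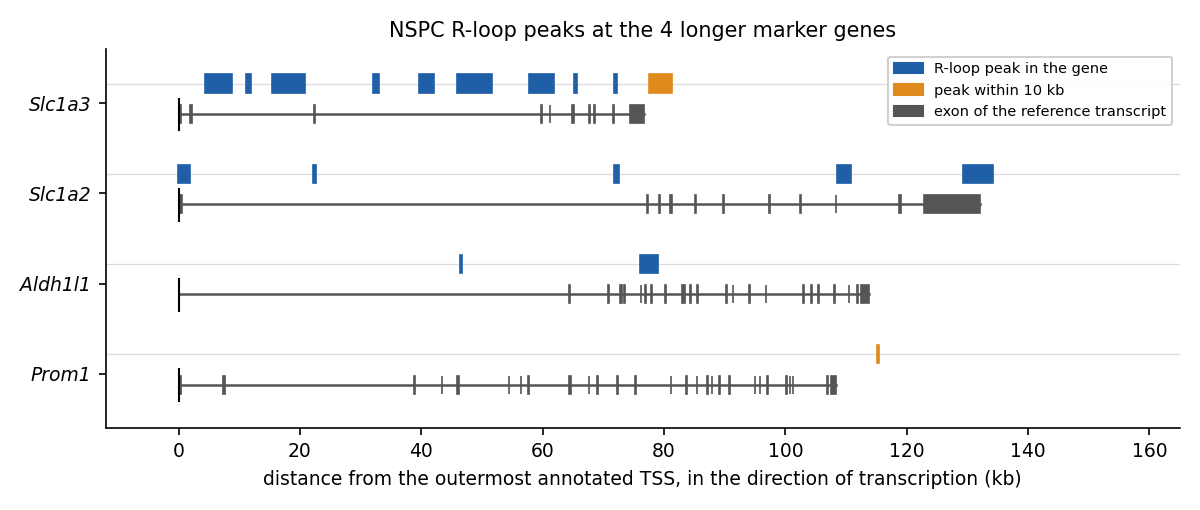
Position of R-loop peaks at Slc1a3, Slc1a2, Aldh1l1 and Prom1 by distance from the outermost annotated TSS in kb, with blue boxes for peaks in the gene, orange boxes for peaks within 10 kb and grey boxes for exons of 1 transcript per gene. The 9 peaks of Slc1a3 are spread over the gene without its TSS, those of Slc1a2 include both ends, and Prom1 has only a peak of 0.390 kb beyond its end.

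Slc1a3 encodes GLAST, the glutamate transporter of radial glia and astrocytes, and had the most peaks of the 10 genes. It spans 76.6 kb on the minus strand (chr15:8584124-8660764, ENSMUSG00000005360). Its 9 peaks covered 32.6% of the gene. Among 4735 protein-coding genes of 0.5 to 2 times its length, 51 (1.08%) contained at least 9 peaks and 98.0% had a smaller share covered, with a median of 1 peak and 0.764%. Over all protein-coding genes, 144 (0.644%) contained at least 9 peaks. The peaks were 0.506 to 5.70 kb wide with a median of 2.43 kb, and the gaps between neighbours were 2.17 to 11.2 kb with a median of 4.97 kb.

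Within Slc1a3, the peaks began 4.31 kb after the TSS, and none contained it. From the TSS to the end of the gene, peaks 1 to 3 lay in intron 2 (4.57 kb at chr15:8651885-8656454, 0.828 kb at chr15:8648887-8649714 and 5.36 kb at chr15:8639945-8645308). Peaks 4 to 6 lay in intron 3 (0.976 kb at chr15:8627807-8628782, 2.43 kb at chr15:8618692-8621118 and 5.70 kb at chr15:8609162-8614865). Peak 7, 4.10 kb at chr15:8598912-8603011, was the one that touched exons, exons 4 and 5 of Slc1a3-001, with 248 bp of coding sequence, and it contained the start of the retained intron transcript Slc1a3-006. Peak 8 (0.506 kb at chr15:8595087-8595592) lay in intron 6 and peak 9 (0.529 kb at chr15:8588439-8588967) in intron 9. Beyond the gene, a peak of 3.83 kb (chr15:8579405-8583232) started 891 bp after the TES. The next peak upstream lay 136 kb away, so that all 10 peaks within 100 kb of the TSS were in the gene or just behind it. The protein-coding transcript Slc1a3-004 ends within the gene and overlapped 3 of the peaks.

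Slc1a2 encodes GLT-1, which takes up most of the glutamate released in the forebrain and is induced as astrocytes mature. It spans 132 kb on the plus strand (chr2:102498816-102630941, ENSMUSG00000005089), and its 5 peaks covered 6.49% of it. In contrast to Slc1a3, peaks lay at both ends. A peak of 2.07 kb (chr2:102498706-102500774) began 110 bp upstream of the TSS and contained exon 1 with 626 bp of untranslated and 17 bp of coding sequence. The widest peak, 4.95 kb (chr2:102628128-102633072), contained the TES, with 2814 bp in the last exon, all of it annotated as untranslated, and 2131 bp beyond the gene. Between them lay peaks of 0.586 kb (chr2:102520896-102521481) and 0.786 kb (chr2:102570570-102571355) in intron 1 and of 2.43 kb (chr2:102607275-102609703) in intron 9, separated by gaps of 18.4 to 49.1 kb.

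Among 3057 protein-coding genes of 0.5 to 2 times the length of Slc1a2, 60.2% contained a peak and 11.8% at least 5 peaks. A smaller share was covered in 85.3%. The gene has 13 annotated transcripts, and the starts of 5 lay in the peak at the TSS. The transcripts Slc1a2-002 and Slc1a2-003, which start 47.8 kb downstream, lay 24.0 kb from the nearest peak with their start. Both transporter genes contained several peaks, at a density of 0.117 peaks per kb in Slc1a3 and 0.0378 peaks per kb in Slc1a2.

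Aldh1l1 encodes 10-formyltetrahydrofolate dehydrogenase, widely used to label astrocytes. Its limits (chr6:90436421-90550197, plus strand, ENSMUSG00000030088) span 114 kb because of Aldh1l1-005, a transcript without coding sequence that starts 64.4 kb upstream of the protein-coding Aldh1l1-001. A peak of 0.486 kb (chr6:90482727-90483212) lay in that upstream part. The other peak, 3.05 kb (chr6:90512463-90515514), lay 11.7 kb after the start of Aldh1l1-001 and overlapped its exons 5 to 7, with 330 bp of coding sequence. With gene limits from protein-coding transcripts alone, Aldh1l1 contained 1 peak. The peaks covered 3.11% of the gene, and 36.5% of 3532 protein-coding genes of 0.5 to 2 times its length contained at least 2 peaks.

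S100b, a calcium-binding protein gene expressed in astrocytes and in part of the oligodendrocyte lineage, spans 7.31 kb on the plus strand (chr10:75716598-75723904, ENSMUSG00000033208). A peak of 1.54 kb (chr10:75720740-75722274) lay in intron 2, from 4.14 to 5.68 kb after the TSS, and covered 21.0% of the gene. The last 101 bp of the peak also belong to Dip2a, a gene of the opposite strand whose end overlaps that of S100b by 1.73 kb. The peak list has no strand, so it cannot tell which of the overlapping genes a hybrid came from.

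Aqp4, the gene of aquaporin-4, spans 14.3 kb on the minus strand (chr18:15547903-15562193, ENSMUSG00000024411). A peak of 2.96 kb (chr18:15551931-15554888) lay from 7.31 to 10.3 kb after the TSS and covered 20.7% of the gene. It extended from intron 5 into the last exon of its 6-exon transcript, with 276 bp of coding and 32 bp of untranslated sequence. The shortest of its 3 transcripts, also protein-coding, ends before the peak and overlapped 0 peaks. As for Vim, no other peak was close, and the next ones were 1028 kb upstream and 227 kb downstream.

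Prom1 and Fabp7 contained 0 peaks. Prom1, which encodes prominin-1 (CD133), a surface protein used to sort neural stem cells, is 108 kb long on the minus strand (chr5:44384864-44493271, ENSMUSG00000029086). The nearest peak, 0.390 kb (chr5:44377844-44378233), lay 6.63 kb beyond its end, and upstream the next one was 69.2 kb away. Of 3652 protein-coding genes of 0.5 to 2 times its length, 58.3% contained a peak. All 6 annotated transcripts start at least 69.2 kb from a peak.

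Fabp7, which encodes the brain lipid-binding protein of radial glia, is the shortest of the 10 genes, with 3.57 kb on the plus strand (chr10:57504687-57508256, ENSMUSG00000019874). The nearest peaks lay 316 kb downstream and 1396 kb upstream. The stretch without peaks was 1716 kb long and held 11 protein-coding genes, among them Hsf2, Serinc1 and Pkib. Of the same 13335 protein-coding genes without a peak but flanked by peaks, 11.3% lay in a stretch as wide or wider. Of 4219 protein-coding genes of 0.5 to 2 times the length of Fabp7, 28.6% contained a peak.

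**Figure D3:**
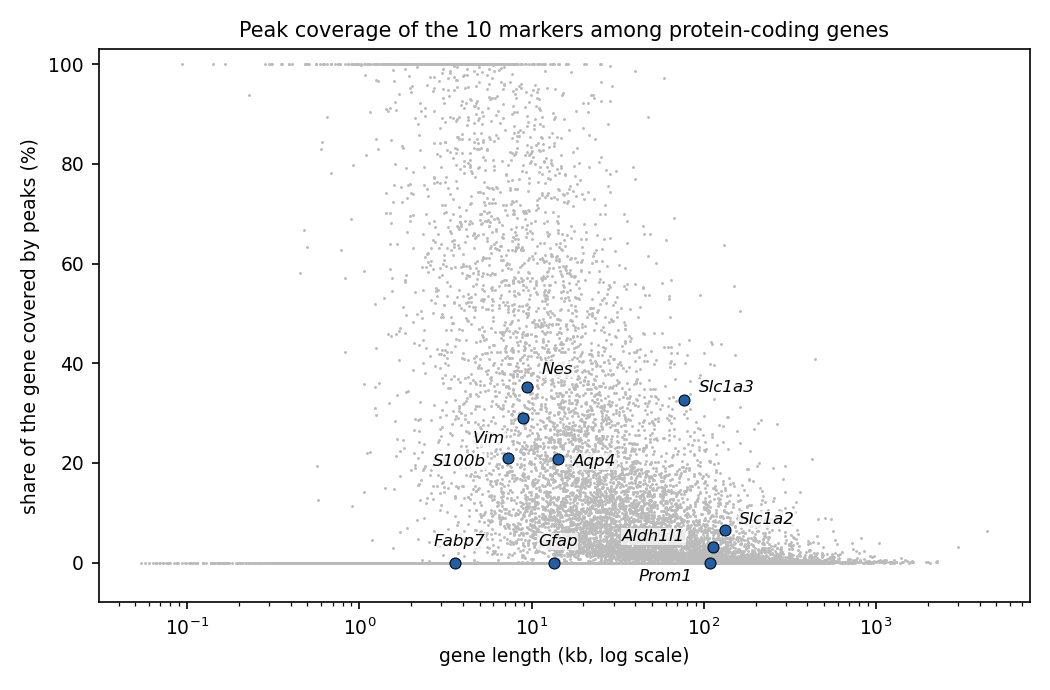
Share of each gene covered by R-loop peaks, in percent, against gene length in kb on a log scale, for 22367 protein-coding genes (grey points) and the 10 marker genes (blue points). Nes, Vim and Slc1a3 lie highest at 35.3, 29.0 and 32.6%, and Fabp7, Gfap and Prom1 lie at 0%.

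The sequence at the gene starts was then compared. For every protein-coding gene, the start was the outermost transcript start within 1 kb of the outermost protein-coding one, and it lay in a peak in 14.9% of 22359 genes. The region within 1 kb to each side of the start held 60.3% G and C in Nes, 59.6% in Slc1a2 and 55.5% in Vim, compared to a median of 56.6% for genes with their start in a peak and 49.98% for those without. The other genes overlapped this range. Aldh1l1 had 56.4%, Gfap 55.7% and Prom1 53.7%, all without a peak at the start, and S100b had 47.2%, Slc1a3 46.7%, Fabp7 44.8% and Aqp4 44.0%.

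CG dinucleotides separated the starts with a peak from the others more clearly than the content of G and C. The ratio of observed to expected CG was 0.700 in Nes, 0.655 in Slc1a2 and 0.584 in Vim. The 7 genes without a peak at the start had lower ratios, of which Prom1 with 0.500 and Slc1a3 with 0.486 were the highest and S100b with 0.144 the lowest. Over all protein-coding genes the median was 0.676 with the start in a peak and 0.405 without. These are descriptions of 10 genes, and other genes with a high ratio lacked a peak, since 28.1% of genes without a peak at the start had a ratio above 0.6.

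The 150 bp upstream of the start (for Gfap, the start of Gfap-201) are shown in mm9 for 3 genes with a peak at the start and 2 without any, as they let the density of CG (capitals) be compared directly.
Nes (chr3:87774850-87774999, plus strand): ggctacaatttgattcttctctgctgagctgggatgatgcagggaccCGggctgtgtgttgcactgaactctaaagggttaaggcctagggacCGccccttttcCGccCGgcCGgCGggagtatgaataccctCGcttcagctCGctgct
Vim (chr2:13495404-13495553, plus strand): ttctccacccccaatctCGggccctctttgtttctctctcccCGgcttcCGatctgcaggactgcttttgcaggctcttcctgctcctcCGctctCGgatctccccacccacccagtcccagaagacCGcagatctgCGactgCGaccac
Slc1a2 (chr2:102498666-102498815, plus strand): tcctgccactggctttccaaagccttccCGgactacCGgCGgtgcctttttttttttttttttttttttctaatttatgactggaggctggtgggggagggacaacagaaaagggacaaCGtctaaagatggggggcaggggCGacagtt
Fabp7 (chr10:57504537-57504686, plus strand): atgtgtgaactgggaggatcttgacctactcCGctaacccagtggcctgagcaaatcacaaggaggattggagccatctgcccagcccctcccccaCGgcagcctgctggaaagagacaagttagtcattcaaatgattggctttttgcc
Gfap (chr11:102758515-102758664, minus strand): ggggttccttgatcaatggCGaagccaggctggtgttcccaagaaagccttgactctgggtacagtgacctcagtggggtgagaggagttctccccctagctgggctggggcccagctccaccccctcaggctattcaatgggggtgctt
These stretches held 8 CG in Nes, 8 in Vim, 5 in Slc1a2, 2 in Fabp7 and 1 in Gfap. Of the genes not shown, Prom1 and Aldh1l1 had 3 each, Slc1a3 had 2, and S100b and Aqp4 had 1 each. The median was 12 over genes with their start in a peak and 5 over the others, and at least 1 CG was present in 87.4% of all such stretches.

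GC skew over the first 1 kb of the gene did not follow the peaks among the 10 genes. The skew, the excess of G over C divided by their sum, was 0.0704 in Nes and 0.0383 in Slc1a2, but -0.152 in Vim, where 4.21% of protein-coding genes had a lower value, although the whole of that 1 kb lay inside a peak. The highest skew was that of Aqp4, 0.165, followed by Fabp7 with 0.0984, Gfap with 0.0981 and Prom1 with 0.0915, none of which had a peak at the start. Medians over all protein-coding genes were 0.0649 with the start in a peak and 0.0344 without. In windows of 200 bp within 1 kb of the start, the content of G and C was highest in Nes, with 75.0% at 0.6 kb, and in Slc1a2, with 74.5% at 0.4 kb. In Vim it was 66.0% at 1 kb, and the skew there was 0.227, above 0, in contrast to the whole of the first 1 kb.

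**Figure D4:**
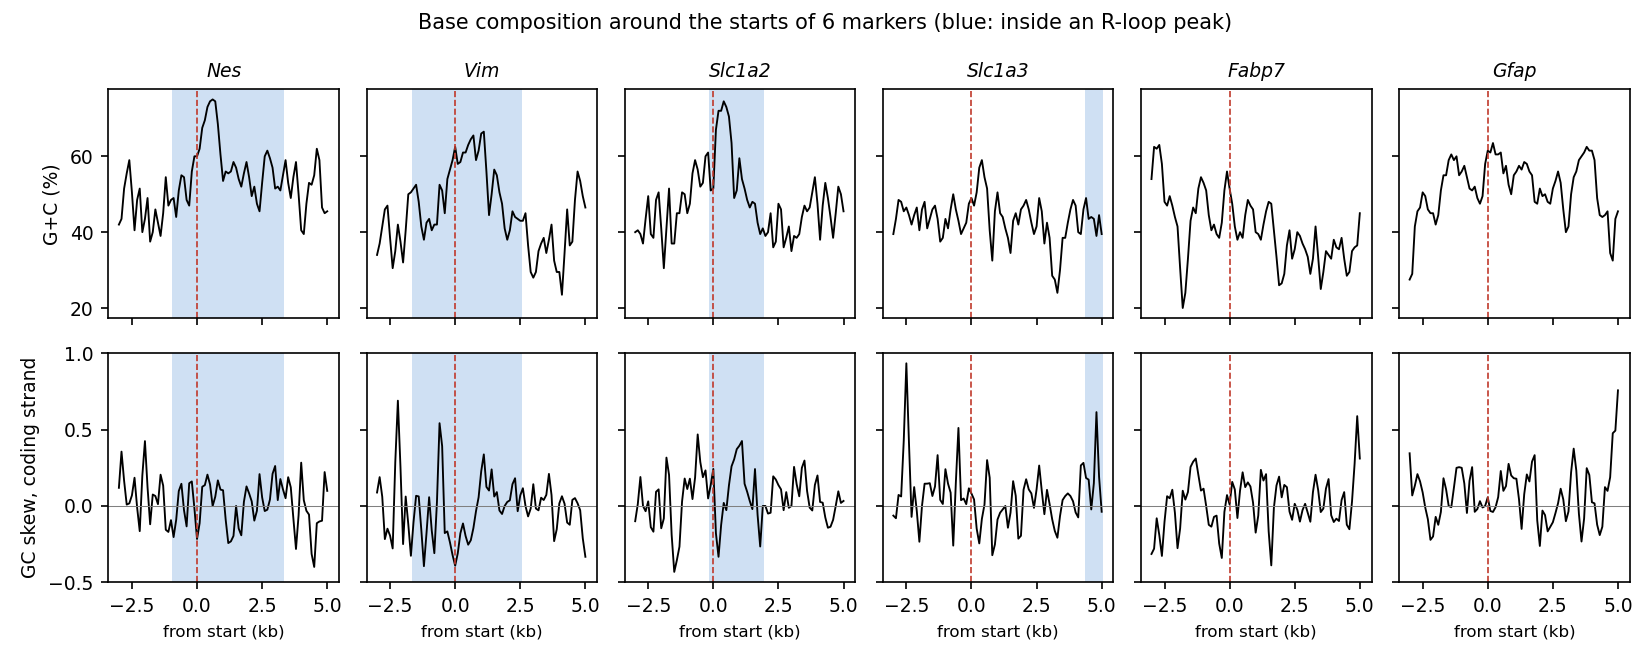
Content of G and C in percent (top) and GC skew on the coding strand (bottom) in windows of 200 bp, by distance from the start in kb, for Nes, Vim, Slc1a2, Slc1a3, Fabp7 and Gfap, with R-loop peaks shaded blue and the start as a dashed line. Nes and Slc1a2 rise to 75.0 and 74.5% inside their peaks, while the skew of Vim is below 0 just after the start.

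Inside the genes, the covered parts were compared with the rest of the same gene. The content of G and C was higher in the peaks in 6 of 7 genes, with Aqp4 as the exception at 41.8% in its peak and 42.2% outside, and 82.3% of 8448 protein-coding genes with a peak over part of them showed the same direction. The difference was largest in Vim, 53.6% in the peak and 39.4% outside, and smallest among those above 0 in Slc1a3, 44.6 and 43.1%. Skew was higher in the peaks in 6 of 7 genes, compared to 56.1% of protein-coding genes. Here Nes was the exception, with 0.0284 in its peak and 0.137 outside. The largest difference was in Aqp4, with 0.0834 in the peak and -0.0355 outside, and in Slc1a3 the values were 0.0395 and 0.00315. Taken peak by peak, skew was above 0 in 17 of the 20 peaks, compared to 66.2% of 15336 peaks over protein-coding genes of 1 strand. The 3 others were the peak of Vim and peaks 7 and 9 of Slc1a3. Slc1a3 held 9 of the 20 peaks and Slc1a2 held 5, so these genes weigh most in the count. The S100b peak, which also overlaps Dip2a on the opposite strand, is among the 20 but not among the 15336. The median content of G and C in the 20 peaks was 45.8%, lower than the 49.5% of peaks over all protein-coding genes.

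The DNA had been cut with EcoRI, HindIII, BsrGI, SspI and XbaI before DRIP, so the sites of these enzymes bear on the limits of a peak. Sites were rarer in the covered part of the gene in all 7 genes, as in 90.3% of protein-coding genes. In Slc1a3 there were 0.880 per kb in the peaks and 2.13 outside, and in Nes 0.605 and 1.98. Of the 40 edges of the 20 peaks, 14 (35.0%) lay within 100 bp of a site, compared to 28.7% of edges of peaks over protein-coding genes. Both edges of the Nes peak did, at 51 and 28 bp from a site, and so did both edges of peak 5 of Slc1a3, at 52 and 55 bp. Sites also lay inside these peaks, 4 in the Nes peak and 2 in peak 5 of Slc1a3. How often an arbitrary position lies within 100 bp of a site was not computed. The part of the digest in the position of the peaks was not tested. The fragment over the start was 1.97 kb in Nes, 2.42 kb in Slc1a2 and 3.82 kb in Vim, whose starts lay in a peak. Starts without a peak lay on fragments of 0.506 kb in Aqp4, 1.33 kb in Fabp7, 1.59 kb in Prom1 and 2.33 kb in Aldh1l1. The others were 2.55 kb in Slc1a3, 2.92 kb in S100b and 4.82 kb in Gfap.

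Other genes of the same cell types were counted for comparison. Of 20 further neural stem cell and radial glia genes, 15 contained a peak and 10 had their TSS in one, and of 20 further astroglial genes, 13 contained a peak and 7 had their TSS in one. The neural stem cell genes with at least 3 peaks were Msi2 with 28, Lrig1 with 11, Ptprz1 with 10, Ddah1 with 7, Egfr and Notch1 with 4, and Cd44, Msi1 and Tnc with 3. Among astroglial genes these were Slc4a4 with 6, Mlc1 with 4 and Sparcl1 with 3. Genes of other cell types that a brain culture could hold less often contained a peak in the gene itself. These were 3 of 14 neuronal genes (Gad1, Elavl3, Syn1) and 4 of 15 oligodendrocyte genes (Cnp, Cspg4, Olig1, Olig2). Peaks also lay in 3 of 10 microglial genes (Itgam, Csf1r, Cd68) and 3 of 10 endothelial genes (Pecam1, Flt1, Slc2a1). The TSS lay in a peak in 1 neuronal, 4 oligodendrocyte, 1 microglial and 1 endothelial gene. For the oligodendrocyte list this was 26.7%, near the 30% of the 10 markers. The shares over all protein-coding genes were 39.6% with a peak and 14.9% with the TSS in one. With the 10 kb on either side, 80% of the neural stem cell and 65% of the astroglial genes had a peak. The share was 60% in the endothelial, 40% in the microglial, 33.3% in the oligodendrocyte and 28.6% in the neuronal list. Over all protein-coding genes it was 51.3%, below that of the endothelial list. The median gene length was 31.5 kb in the neural stem cell list, 14.2 kb in the astroglial, 56.3 kb in the neuronal, 15.7 kb in the oligodendrocyte, 13.7 kb in the microglial and 50.9 kb in the endothelial list. The part of transcription levels in the difference was not tested.

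**Figure D5:**
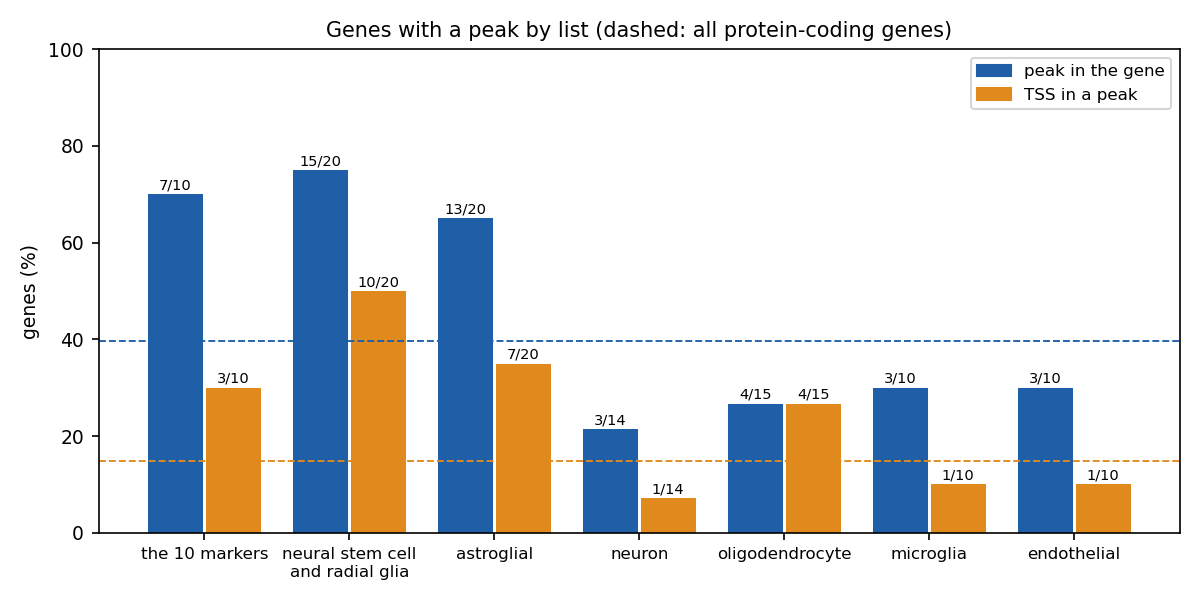
Share of genes, in percent, that contain an R-loop peak (blue) or have their TSS in one (orange) for the 10 marker genes and 6 other lists, with the counts above each bar and dashed lines at the 39.6 and 14.9% of all protein-coding genes. The marker, neural stem cell and astroglial lists stand at 70, 75 and 65% for a peak in the gene, the other lists at 21.4 to 30%. For the TSS, the marker, neural stem cell and astroglial lists stand at 30, 50 and 35%. The oligodendrocyte list stands at 26.7% and the remaining lists at 7.14 to 10%.

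Close relatives of the markers were counted as well. For comparison, 39.6% of all protein-coding genes contained a peak and 14.9% had their TSS in one. Of 7 further intermediate filament genes, 2 contained a peak (Synm with 2, Nefh with 1), and 0 had their TSS in one. Among 5 further genes of the Slc1 family, Slc1a4 contained 3 peaks and Slc1a6 contained 1. Of 8 other fatty acid binding protein genes, Fabp5 and Fabp12 contained 1 peak each. Of 10 other aquaporin genes, Aqp7 contained 1, and of 5 aldehyde dehydrogenase relatives of Aldh1l1, Aldh1a3 contained 2 and Aldh1l2 contained 1. Among these families, the S100 genes had the highest share with a peak in the gene, 5 of 8 (S100a1, S100a10, S100a11, S100a13 and S100a16). With the 10 kb on either side, the Slc1 relatives were highest with 80%, followed by the S100 genes with 75%. The fatty acid binding protein and aquaporin genes then stood at 50%, the filament genes at 42.9% and the aldehyde dehydrogenase genes at 40%. Over all protein-coding genes this share was 51.3%. Prom2 contained 0 peaks, as did Prom1.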

How the data were processed

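DRIP-seq peaks of primary NSPCs were analysed. The authors trimmed adapters with Trim Galore 0.6.6, used NCBI37/mm9 for alignment, discarded duplicate reads and detected peaks by an algorithm based on a Hidden Markov Model. The deposited list holds peak positions in base pairs alone. It stands for 3 biological replicates with 3 DRIP reactions each. The rule that combined them is not given in the sources used here, and depth is unknown. The input library was not used here. All peaks lay within the chromosome lengths of the mm9 reference. Peaks were compared with GENCODE M1 genes in Python 3.11.15 with numpy 2.4.6 and matplotlib 3.10.9. The reference transcript was the one numbered 001 or, failing that, the one with the longest coding sequence. Interval and window counts were tested on simulated data. The 10 genes, the lists and the measures were chosen with earlier results of these data known. Named outside the 10 are genes that share a peak with one, listed genes with at least 3 peaks and, in lists with up to 10 genes with a peak, all of these. Hsf2, Serinc1 and Pkib were chosen after their positions were seen. Map2 was not found under that symbol. The sequence of 1 further peak is not reported here. Alternatives concerned peak size, merging, gene limits, overlap, distance and gene ends.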

Additional observations from a re-analysis of the deposited data

How the results depend on the processing

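The number of marker genes with a peak stayed at 7 when peaks under 1 kb were left out, when peaks closer than 1 kb were merged and under the other gene limits and overlaps. The share over all protein-coding genes was 31.8% without peaks under 1 kb and 39.6% with merging. It was 39.3% with the other gene limits and 34.4 to 34.9% under the other overlaps. Without peaks under 1 kb, the peaks in the genes numbered 13 in place of 20, with 5 in Slc1a3, 3 in Slc1a2 and 1 in Aldh1l1. The number of genes with the TES in a peak rose from 1 to 2 with the end of any protein-coding transcript, which added Vim-003, and to 2 with ends within 1 kb of a peak, which added Slc1a3. The shares over all protein-coding genes were 13.7 and 17.4% under these rules, so the latter count was near that of all genes. The other 26 values differed by at most 1.5 times from those reported, the largest drop being from 24 to 16 peaks in the genes or within 10 kb without peaks under 1 kb. Leaving out a replicate was not possible with 1 list. No paired analysis was possible because the replicates were combined into 1 list. Depth behind a peak is unknown, so the absence of a peak in Gfap, Prom1 and Fabp7 says only that none was called.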
